A study of Mus musculus with 6 samples.

Results

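The genes described here are 39 interferon-stimulated genes and regulators of the interferon response, among the 55367 genes in the expression table of leukemia stem cells (LSCs). They were chosen by symbol: 19 antiviral effectors, 2 genes of the ISG15 system, 6 sensors of foreign RNA or DNA, 4 transcription factors, 4 receptor chains and 4 interferon-induced GTPases. RNA-seq was performed on LSCs from mice with MLL-AF9-driven acute myeloid leukemia (AML), with 3 libraries from WT leukemia and 3 from leukemia of mice with a conditional deletion of Piezo1, a mechanosensitive ion channel. Leukemia was generated by transducing lineage-negative bone marrow cells with a retrovirus carrying MLL-AF9 and YFP and transplanting them into irradiated recipients, and the labels give an age of 8 to 10 weeks. Piezo1cko donors were Mx1-cre; Piezo1 fl/fl on C57BL/6J, and WT donors were Piezo1 fl/fl littermates without Cre. Donors of both groups had received poly(I:C), a double-stranded RNA mimic that induces interferon and thereby switches on the Mx1 promoter of the Cre transgene. The transgene is therefore carried by Piezo1cko cells and not by WT cells, and the time from poly(I:C) to the sorting of the LSCs is not given in the sources used here. LSCs were sorted as YFP+, lineage-negative, Sca-1-negative, c-Kit+ cells with high CD16/32 and with CD34.

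Type I interferons signal through the receptor chains Ifnar1 and Ifnar2, and interferon gamma through Ifngr1 and Ifngr2. JAK kinases bound to the receptors phosphorylate STAT proteins: a complex that holds Stat2 and Irf9 binds the interferon-stimulated response element (ISRE), while STAT dimers bind the gamma-activated site (GAS). The genes switched on in this way encode antiviral effectors, sensors and the factor Irf7, which raises interferon production further, and in blood-forming tissue interferon is known to drive resting stem cells into cycle.

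Promoter sequences are shown first, because both elements are read from DNA and the members can be compared on them. RefSeq promoter windows (GRCm38.p6, 250 bases before to 50 after the start of each transcript) were found for 32 of the 39 genes, in 39 windows, and none was found for Dhx58, Mx1, Mx2, Oas2, Rtp4, Usp18 and Zbp1. The 250 bases before the start are given for the 4 genes with a window among the 8 members that passed both thresholds of the study on recovered reads (an absolute log2 fold change over 1, with an adjusted p under 0.05). Irf7 and Xaf1 were higher in Piezo1cko LSCs and Gbp7 was lower. Ifit3, with 0 reads in WT, entered the test only through its 10 reads in Piezo1cko libraries. Capitals mark the letters GAAANNGAAA (ISRE) and TTCNNNGAA (GAS), searched on both strands, and each sequence is written 5′ to 3′ on the strand of its gene.
Irf7 (chr7:141266425-141266674, minus strand): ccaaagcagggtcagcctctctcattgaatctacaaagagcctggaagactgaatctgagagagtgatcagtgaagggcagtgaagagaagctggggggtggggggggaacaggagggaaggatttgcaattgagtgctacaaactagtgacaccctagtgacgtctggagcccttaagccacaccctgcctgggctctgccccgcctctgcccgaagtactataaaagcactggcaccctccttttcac
Xaf1 (chr11:72301379-72301628, plus strand): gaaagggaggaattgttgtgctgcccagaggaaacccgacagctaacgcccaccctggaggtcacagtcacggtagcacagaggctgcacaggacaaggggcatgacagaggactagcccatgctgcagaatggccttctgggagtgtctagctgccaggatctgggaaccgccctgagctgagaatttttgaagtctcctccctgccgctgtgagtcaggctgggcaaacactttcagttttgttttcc
Ifit3 (chr19:34583279-34583528, plus strand): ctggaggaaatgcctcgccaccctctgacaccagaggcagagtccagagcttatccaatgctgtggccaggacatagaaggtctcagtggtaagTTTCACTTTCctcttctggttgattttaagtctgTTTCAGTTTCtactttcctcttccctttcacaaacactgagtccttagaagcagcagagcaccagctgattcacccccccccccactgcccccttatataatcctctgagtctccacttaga
Gbp7 (chr3:142530086-142530335, plus strand): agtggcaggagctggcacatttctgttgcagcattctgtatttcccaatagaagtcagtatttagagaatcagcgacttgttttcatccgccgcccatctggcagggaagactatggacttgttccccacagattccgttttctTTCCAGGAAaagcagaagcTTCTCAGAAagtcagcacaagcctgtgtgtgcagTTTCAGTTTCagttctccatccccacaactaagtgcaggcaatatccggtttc
The ISRE letters matched at 2 places in the Ifit3 window and at 1 in that of Gbp7, which also held 2 matches to the GAS letters. The windows of Irf7 and Xaf1 held no match to either, which says only that these letters were not in these bases.

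Over the members, 16 of 39 windows (41.0%), belonging to 15 of 32 genes, held the ISRE letters, against 3.44% of all 32851 mouse promoter windows. The GAS letters stood in 10 of 39 member windows (25.6%), those of 10 genes, against 8.30% of all windows. The match with its 5 flanking bases on each side is given for the 4 interferon-induced GTPases, whose transcripts moved in different directions, and for Isg15, Ifit1, Stat2 and Bst2.
Gbp7 (chr3:142530278-142530297, plus strand): tgcagTTTCAGTTTCagttc
Gbp2 (chr3:142620599-142620618, plus strand): tttagTTTCACTTTCactgt
Gbp3 (chr3:142559994-142560013, plus strand): cacagTTTCAGTTTCtattt
Igtp (chr11:58199517-58199536, plus strand): gaactGAAACTGAAAgctgt
Isg15 (chr4:156200876-156200895, minus strand): aaaagGAAACCGAAAcagaa
Ifit1 (chr19:34640799-34640818, plus strand): ctcagTTTCAGTTTCtcact
Stat2 (chr10:128270271-128270290, plus strand): cctggTTTCAGTTTCctttc
Bst2 (chr8:71537582-71537601, minus strand): aaaatGAAACTGAAAggctg
Matches in the windows of Isg15, Bst2, Oas1a and Gbp3 overlapped one another, and in Bst2 a GAS match overlapped an ISRE match. Holding the ISRE letters did not go with 1 direction of change: of the 15 genes with a match, 5 were called higher in Piezo1cko LSCs, 3 lower and 6 neither, and 1 was not tested. Of the 17 genes whose windows lacked them, 7 were higher, 4 lower and 5 not called, and 1 was not tested.

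**Figure D1:**
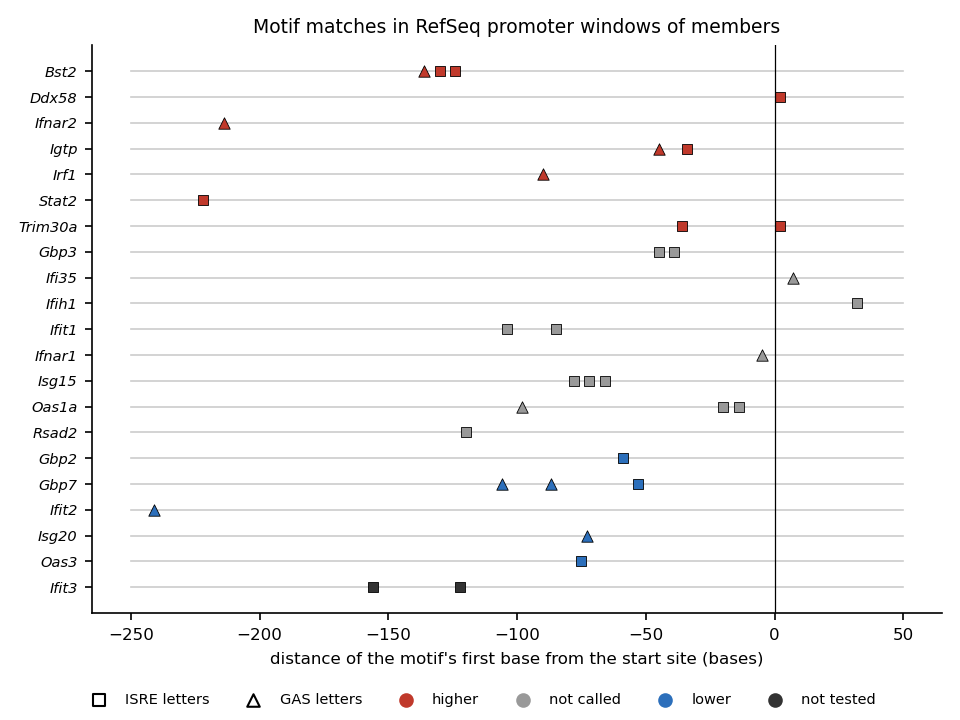
Position of each ISRE (squares) and GAS (triangles) match in the RefSeq promoter windows of the 21 members with any match, in bases from the transcript start on the horizontal axis, coloured by the call on the deposited values. Members that were higher, lower or not called all include windows with ISRE matches, and most matches lie before the start.

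Gene positions are those of GENCODE M21 on GRCm38. The libraries held 14112097 to 15483587 recovered reads. The deposited values are on a log2 scale and pulled towards each gene's mean, so that differences of weakly expressed genes are much smaller on that scale than in reads. The transform could be undone to whole reads, and values are given below as normalized recovered reads (reads divided by the library's size factor), with the test on the deposited values and the fold on recovered reads beside them. Piezo1 itself gave 101, 92.8 and 109 normalized reads in WT and 36.6, 56.5 and 45.8 in Piezo1cko libraries, which is 45.9% of the WT mean, with no overlap. The marker list of the LSC gate and MLL-AF9 leukemia (Kit, Cd34, Fcgr3, Fcgr2b, Myb, Hoxa9, Meis1 and Ptprc) had reads for 8 of 8 genes and summed to 24560 to 25160 normalized reads in WT and 25770 to 26410 in Piezo1cko libraries. Its members went both ways: Kit (136% of WT), Cd34 (156%) and Ptprc (116%) were higher, Fcgr2b (48.1%), Myb (92.8%) and Meis1 (86.8%) lower, and Fcgr3 and Hoxa9 not called. The sources do not say that the 3 libraries of a group came from separate mice, so the p-values measure the spread between libraries, which may be technical.

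Markers of other cells differed between the groups as well, and their part in the results below was not tested. The plasmacytoid dendritic cell list, a cell type known for high Irf7 and interferon output, summed to 2170 to 2250 normalized reads in WT and 2958 to 3082 in Piezo1cko libraries, with reads for 7 of 8 genes and Klk1 at 0. Tcf4 supplied most of that sum, while the defining surface marker Siglech had 0 to 1.009 normalized reads in WT and 5.85 to 9.16 in Piezo1cko libraries. Of the 6 plasmacytoid genes tested, 5 were higher (83.3%) and 1 lower (16.7%), beside 31.6% and 31.4% of all genes. NK cell markers (7 genes, 5 of them under 10 normalized reads in every library) ran from 2.89 to 5.82 in WT and from 44.9 to 64.1 in Piezo1cko libraries, the bulk of it from Klrb1c. T cell markers ran from 61.6 to 70.6 in WT and from 80.9 to 125 in Piezo1cko libraries, with Cd8a at 0. Of the 8 T cell genes, 6 had under 10 normalized reads in every library. Of the 4 tested, 3 were higher (75%) and 1 was lower (25%), beside 31.6% and 31.4% of all genes. The B cell list ran from 12220 to 12590 in WT and from 22360 to 22750 in Piezo1cko libraries, with Ighm as its main source. The macrophage list summed to 5908 to 6226 in WT and 6913 to 7093 in Piezo1cko libraries, with C1qa at 0. Neutrophil markers, in contrast, summed to 2509 to 2532 in WT and 909 to 956 in Piezo1cko libraries, and erythroid markers to 111 to 122 and 31.5 to 43.9. The neutrophil list was not uniform: 5 of 7 tested were lower (Ngp at 10.9% of WT), 1 was not called, and Mmp8 rose from 37.8, 42.4 and 47.1 normalized reads in WT to 651, 623 and 627 in Piezo1cko libraries. Sca-1 (Ly6a), which the gate excludes and interferon induces, had 0.9703, 1.009 and 0 normalized reads in WT and 10.4, 16.6 and 7.12 in Piezo1cko libraries. In these sorted populations, a change in the cells of a type and a change in RNA per cell cannot be told apart.

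Comparison of Piezo1cko with WT LSCs asked how each gene differed between the groups, which differ in the Cre transgene as well as in Piezo1. All 39 members had reads, and 37 passed the filter on low values (Ifit3 and Ifi44 did not). Of these 37, at an adjusted p under 0.05, 17 were higher in Piezo1cko LSCs (45.9%, against 31.6% of all 16746 genes tested). A further 8 were lower (21.6%, against 31.4%), and 12 were not called. Mx2, with 0 reads in WT, is among the 17 and entered the test through its Piezo1cko reads alone. No member passed an absolute log2 difference over 1 on the deposited scale, where 0.257% of all genes did so upwards and 0.561% downwards. On recovered reads, with 38 members tested, the counts were again 17 higher and 8 lower (background 31.6% and 31.4%), and 6 members were higher and 2 lower with an absolute log2 fold change over 1 (background 12.7% and 12.2%). Mx2 and Ifit3, which had 0 reads in WT and whose reads came from Piezo1cko libraries alone, are among the 6. Without both, 15 of 36 were higher and 8 lower, and 4 and 2 passed both thresholds. The median log2 difference over the members was 0.07 on the deposited scale and 0.25 on recovered reads, where the medians over all genes were 0.0006 and -0.0002. With Mx2 and Ifit3 at their lower bounds, the members' median on recovered reads was again 0.25. Normalized reads of the groups did not overlap for 17 members with higher and 9 with lower values in Piezo1cko libraries, against 33.5% and 33.1% of all genes.

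**Figure D2:**
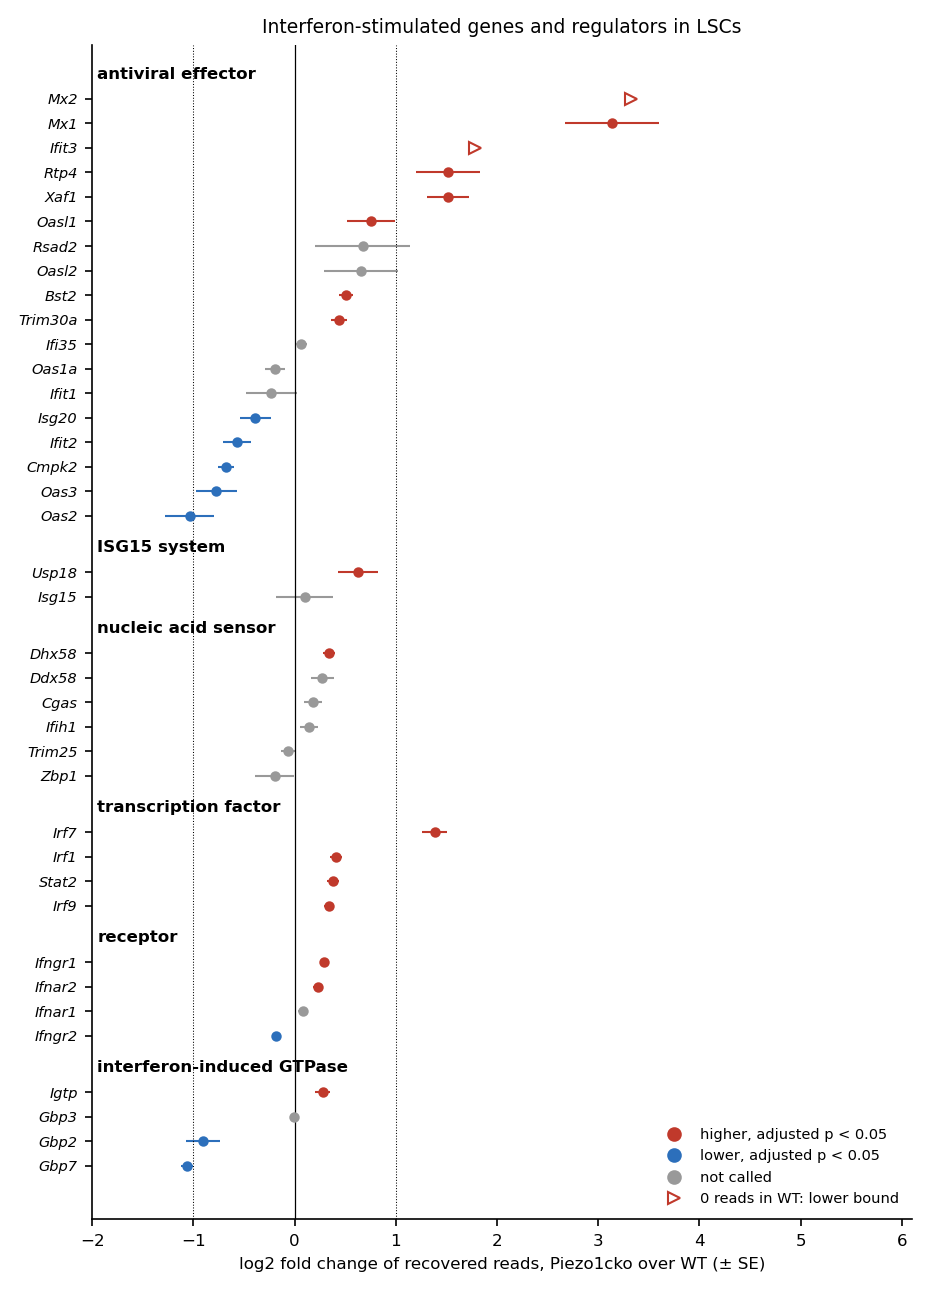
Log2 fold change of recovered reads (Piezo1cko over WT, horizontal axis) with its standard error for the 38 members tested, grouped by role, with dotted lines at -1 and 1. Open triangles mark the lower bounds of Mx2 and Ifit3, which had 0 reads in WT. The 4 transcription factors lie right of 0. Antiviral effectors lie on both sides, from the lower bound of Mx2 at 3.32 and Mx1 at 3.13 to Oas2 at -1.04.

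Interferon genes themselves had almost no counted reads. Of 21 ligand genes listed, 19 (Ifnb1, Ifng and the listed interferon alpha genes included) had 0 reads in every library. This allows up to 2.13e-05% of a library's counted reads for each gene, and does not cover reads left uncounted. None of the 21 could be tested. Ifnk had 2 reads over the WT and 4 over the Piezo1cko libraries, and Ifnz had 1 read in WT.

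All 4 receptor chains were well expressed. Of these, 2 were higher (50%, against 31.6% of all genes), 1 lower (25%, against 31.4%) and 1 not called. Ifngr1, the ligand-binding chain of the interferon gamma receptor, had 10880, 10550 and 10600 normalized reads in WT and 13440, 12930 and 12820 in Piezo1cko libraries. Ifngr1 was thus at 122% of the WT mean without overlap (deposited log2 difference 0.21 ± 0.0197 SE, adjusted p = 3.00e-08). Ifngr2, its signalling partner, had 2160, 2298 and 2275 normalized reads in WT and 2040, 1953 and 1938 in Piezo1cko libraries. The groups did not overlap here either, but Ifngr2 was lower, at 88.1% of the WT mean (log2 difference -0.13 ± 0.0288, adjusted p = 8.66e-04). Ifnar2, which binds type I interferon with high affinity, had 1539, 1712 and 1604 normalized reads in WT and 1869, 1884 and 1929 in Piezo1cko libraries. It was higher in each Piezo1cko library than in any WT library (log2 difference 0.16 ± 0.0311, adjusted p = 2.57e-04). Ifnar1, the second chain of that receptor, had 1429, 1519 and 1501 normalized reads in WT and 1614, 1582 and 1501 in Piezo1cko libraries. These values overlapped and the difference was not called (log2 difference 0.05, adjusted p = 0.141, interval of the log2 fold on recovered reads -0.01 to 0.17). Per kilobase of annotated exon, Ifngr1 was the most abundant chain in WT (3750 normalized reads per kilobase), followed by Ifngr2 (596), Ifnar2 (486) and Ifnar1 (250). In Piezo1cko LSCs Ifnar2 (569) stood above Ifngr2 (525), with Ifngr1 at 4590 and Ifnar1 at 264.

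The kinases and STAT proteins downstream, which are not among the 39, included 7 of 10 that were lower (70%, against 31.4% of all genes) and 3 that were higher (30%, against 31.6%). Among the kinases of the interferon receptors, Tyk2 (124% of the WT mean) and Jak1 (110%) rose, and Jak2, which serves interferon gamma, fell to 62.7%. Jak3, the kinase of common gamma chain cytokine receptors, fell to 68.8%. Stat4 fell to 58.5%, Stat5b to 80.4%, Stat3 to 83.0% and Stat6 to 85.5% of WT, and Stat5a rose to 121%.

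Of 13 inhibitors of cytokine signalling, 7 were lower (53.8%, against 31.4% of all genes) and 4 higher (30.8%, against 31.6%), and 3 of the lower ones passed both thresholds on the deposited scale, which no gene of the other wider lists did. Socs3, which blocks JAK kinases, had 490, 474 and 565 normalized reads in WT and 10.4, 8.77 and 8.14 in Piezo1cko libraries. This was 1.79% of the WT mean (deposited log2 difference -2.002 ± 0.0434, adjusted p = 1.84e-17). Cish, another SOCS family member, was at 4.44% of WT (log2 difference -1.25) and Ptpn1, a phosphatase that acts on Jak2 and Tyk2, at 24.7% (-1.41). Socs2 was at 4.63%. Socs1, a brake on interferon signalling and named here after its values were seen, had 51.4, 73.7 and 75.04 normalized reads in WT and 39.7, 29.2 and 26.5 in Piezo1cko libraries. Its groups did not overlap (deposited log2 difference -0.20, adjusted p = 2.67e-04, fold on recovered reads -1.06). Pias3, an inhibitor of STAT binding to DNA, rose to 195% of WT.

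The 4 transcription factors among the members were all higher in Piezo1cko LSCs (against 31.6% of all genes), and their libraries did not overlap. Irf7 (chr7:141262706-141266481) rose most: it had 74.7, 69.6 and 67.3 normalized reads in WT and 183, 177 and 195 in Piezo1cko libraries. Every Piezo1cko library was far above the WT libraries, at 262% of the WT mean on average (deposited log2 difference 0.49 ± 0.0375, adjusted p = 2.38e-09, log2 fold on recovered reads 1.39 ± 0.122). The exons of Irf7 overlap those of Phrf1 on the opposite strand, which had 1733 to 1783 normalized reads in WT and 1643 to 1686 in Piezo1cko libraries, and the libraries do not mark strand, so reads of the shared bases cannot be told apart. Irf1, a factor induced by interferon gamma, had 363, 357 and 382 normalized reads in WT and 489, 485 and 489 in Piezo1cko libraries. It stood at 133% of WT (log2 difference 0.23 ± 0.0345, adjusted p = 1.34e-05), with an overlapping opposite-strand gene, Gm17334, at 88 to 127 normalized reads over all libraries. Stat2 had 646, 587 and 595 normalized reads in WT and 832, 811 and 741 in Piezo1cko libraries, or 130% of WT (log2 difference 0.24 ± 0.0373, adjusted p = 2.28e-05). Irf9, the DNA-binding partner of Stat2, had 835, 881 and 823 normalized reads in WT and 1028, 1068 and 1121 in Piezo1cko libraries. At 127% of WT it was also separate (log2 difference 0.22 ± 0.0335, adjusted p = 1.49e-05), while Rnf31, which overlaps it on the same strand, had 334 to 353 normalized reads in WT and 236 to 265 in Piezo1cko libraries.

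**Figure D3:**
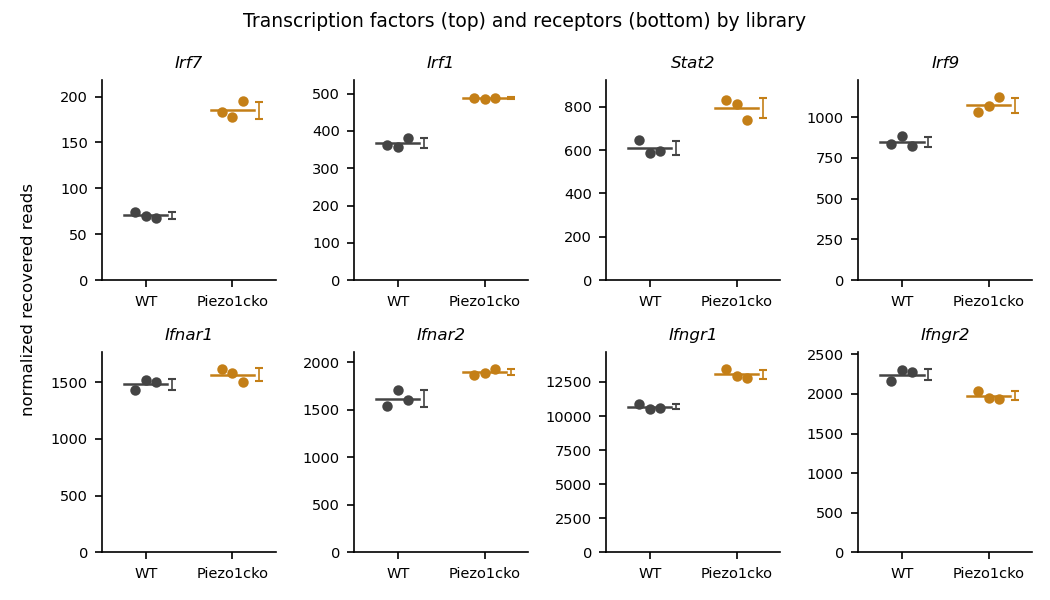
Normalized recovered reads of the 4 transcription factors (top) and 4 receptor chains (bottom) in each library; points are libraries, horizontal lines group means and error bars SD (n = 3). The 4 factors and Ifngr1 and Ifnar2 lie higher in Piezo1cko libraries, Ifngr2 lies lower, and the groups overlap for Ifnar1.

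Among other IRF genes and IRF-binding proteins, 5 of 8 tested were higher (62.5%, against 31.6% of all genes) and 2 lower (25%, against 31.4%). Irf8, needed for monocyte and dendritic cell development, was at 123% of WT, Irf5 at 112% and Irf3, which starts interferon production, at 111%. Irf2bp2 was at 143% and Irf2bpl at 123%. The corepressor gene Irf2bp1 fell to 37.1%. Irf2, which competes with Irf1, was at 95.1% and not called (adjusted p = 0.207).

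Of the 6 sensors, 2 were higher (33.3%, near the 31.6% of all genes), none was lower and 4 were not called. Dhx58 (LGP2), a regulator of RNA sensing, had 512, 494 and 465 normalized reads in WT and 659, 620 and 584 in Piezo1cko libraries. Its groups did not overlap (127% of WT, log2 difference 0.20 ± 0.0374, adjusted p = 1.29e-04). Ddx58 (RIG-I), which detects viral RNA ends, reached 121% of WT with an adjusted p of 0.0362 on the deposited values, but of 0.0507 on recovered reads and of 0.0550 to 0.0944 without WT replicate 2 or 3 or Piezo1cko replicate 2 or 3. Cgas, the DNA sensor, was at 113% of WT (adjusted p = 0.0793; 0.0166 without WT replicate 1 and 0.0426 without Piezo1cko replicate 2), and Ifih1 (MDA5), the sensor of long double-stranded RNA, at 110% (adjusted p = 0.152). Trim25, which ubiquitinates RIG-I, was at 95.8% (adjusted p = 0.436) and Zbp1, a sensor of Z-form nucleic acid, at 89.3% (adjusted p = 0.409). These 4 overlapped between the groups and were not called, and no interval of the log2 fold on recovered reads reached past 0.38 upwards or -0.61 downwards.

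Adaptors and kinases of the same sensing pathways changed in both directions, with 9 of 19 higher (47.4%) and 5 lower (26.3%), where 31.6% and 31.4% of all genes were. Sting1, the adaptor of Cgas, rose to 189% of WT and the DNA sensor Aim2 to 173%. Irak4, a kinase of Toll-like receptor signalling, rose to 139%. Ikbke, a kinase that activates Irf3 and Irf7, fell to 50.1% and Ticam1, the adaptor of Tlr3, to 53.1%. Of 10 genes that clear nucleic acids, 3 were higher (30%), 1 was lower (10%) and 6 were not called. Rnaseh2b, a subunit of the enzyme that removes RNA from DNA hybrids, rose to 121% of WT and Dnase2a, a lysosomal nuclease, to 118%, and Pnpt1 fell to 83.9%. Samhd1, Adar, Skiv2l, Rnaseh2a and Rnaseh2c ran from 94.3% to 110% and Dnase1, with under 10 normalized reads in every library, was at 144%.

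Of 17 antiviral effectors tested, 7 were higher (41.2%, against 31.6% of all genes), 5 lower (29.4%, against 31.4%) and 5 not called. These shares are not far from those of all genes, and Mx2, with 0 reads in WT, is among the 7. Mx1 (chr16:97447035-97462907), a gene of the dynamin-like GTPase family, had 2.91, 4.04 and 0.962 normalized reads in WT and 29.2, 21.4 and 22.4 in Piezo1cko libraries. The lowest Piezo1cko library was above the highest WT library by several times (deposited log2 difference 0.16 ± 0.0234, adjusted p = 8.95e-06, log2 fold on recovered reads 3.13 ± 0.464). The ratio of the group totals was 9.29, with a 95% interval of 4.47 to 22.3 that covers counting error only. The Cre transgene of the Piezo1cko cells is driven by the Mx1 promoter, and whether transcripts from it add reads to Mx1 was not tested. Mx2 (chr16:97535308-97560900), its neighbour on chromosome 16, had 0 reads in WT and 7.31, 10.7 and 11.2 normalized reads in Piezo1cko libraries, at least 9.98-fold higher against a floor of 3 reads over the 3 WT libraries. Ifit3 (chr19:34583531-34588731), an RNA-binding protein of the IFIT family, likewise had 0 reads in WT and 3.13, 2.92 and 4.07 in Piezo1cko libraries, which sets the fold at 3.44 or more and rests on 10 reads.

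Xaf1 (chr11:72301629-72313733), a proapoptotic interferon-induced protein, had 36.9, 35.3 and 26.9 normalized reads in WT and 89.8, 80.9 and 116 in Piezo1cko libraries. The groups were well apart, at 289% of WT (deposited log2 difference 0.35 ± 0.0424, adjusted p = 1.16e-06, log2 fold on recovered reads 1.51 ± 0.208). Rtp4 (chr16:23520291-23614222), a zinc-finger protein that restrains interferon signalling and flaviviruses, had 9.70, 13.1 and 14.4 normalized reads in WT and 50.1, 27.3 and 34.6 in Piezo1cko libraries. It varied more between the Piezo1cko libraries than Xaf1 but did not overlap (301% of WT, log2 difference 0.17 ± 0.0344, adjusted p = 3.28e-04). Bst2 (tetherin), which holds budding virions at the cell surface and is also a surface marker of plasmacytoid dendritic cells, had 300, 340 and 335 normalized reads in WT and 435, 484 and 464 in Piezo1cko libraries. It was at 142% of WT without overlap (log2 difference 0.28 ± 0.0389, adjusted p = 6.00e-06). Trim30a, an inhibitor of NF-kappaB signalling, was at 136% of WT (adjusted p = 7.25e-05) and Oasl1, an OAS-like protein that limits Irf7 translation, at 165% (adjusted p = 0.00709), both without overlap. The call of Oasl1 was lost without WT replicate 1 (adjusted p = 0.0589).

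The 5 effectors that fell include members of the same families. Oas2 (chr5:120730333-120749853), an enzyme that makes short oligoadenylate messengers on sensing double-stranded RNA, had 42.7, 41.4 and 36.6 normalized reads in WT and 23.0, 20.5 and 15.3 in Piezo1cko libraries. It did not overlap and was at 48.7% of WT (deposited log2 difference -0.14 ± 0.0311, adjusted p = 9.44e-04, log2 fold on recovered reads -1.04 ± 0.240). Oas3, the next gene on chromosome 5, was at 57.7% (adjusted p = 0.00150), whereas Oas1a was at 87.2% and not called (adjusted p = 0.0818), although its libraries did not overlap. Oasl2 was at 147% and not called (adjusted p = 0.164). Cmpk2, a mitochondrial nucleotide kinase, had 500, 503 and 444 normalized reads in WT and 323, 281 and 301 in Piezo1cko libraries. It fell to 62.5% of WT (log2 difference -0.37 ± 0.0402, adjusted p = 2.39e-07), while Rsad2 (viperin), its neighbour on chromosome 12, had 2.89 to 6.06 normalized reads in WT and 5.22 to 11.7 in Piezo1cko libraries and was not called (adjusted p = 0.237).

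In the IFIT cluster on chromosome 19, Ifit2, which binds viral RNA together with its paralogs, had 94.1, 97.9 and 101 normalized reads in WT and 60.6, 66.3 and 70.2 in Piezo1cko libraries. The groups did not overlap (67.3% of WT, log2 difference -0.16 ± 0.0364, adjusted p = 9.29e-04). Ifit1, its neighbour and a standard marker of the interferon response, had 30.1, 33.3 and 39.4 normalized reads in WT and 19.9, 38.0 and 31.5 in Piezo1cko libraries. These overlapped and were not called (log2 difference -0.03, adjusted p = 0.479, interval of the log2 fold on recovered reads -0.77 to 0.31). So within this cluster Ifit2 fell, Ifit1 was not called and Ifit3 was seen in Piezo1cko libraries and in no WT library. Isg20, an exonuclease, was at 76.2% of WT (adjusted p = 0.0226), a call lost without WT replicate 3 (0.156) or Piezo1cko replicate 2 (0.0552) or 3 (0.119). Ifi35, an adaptor-like protein, was at 105% (not called, adjusted p = 0.341), and Ifi44 had 1 read in all 6 libraries. Reads shared between paralogs of the OAS, IFIT, GBP, TRIM30 and interferon alpha families may have been assigned to either or left uncounted. How the counting treated them is not given in the sources used here.

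**Figure D4:**
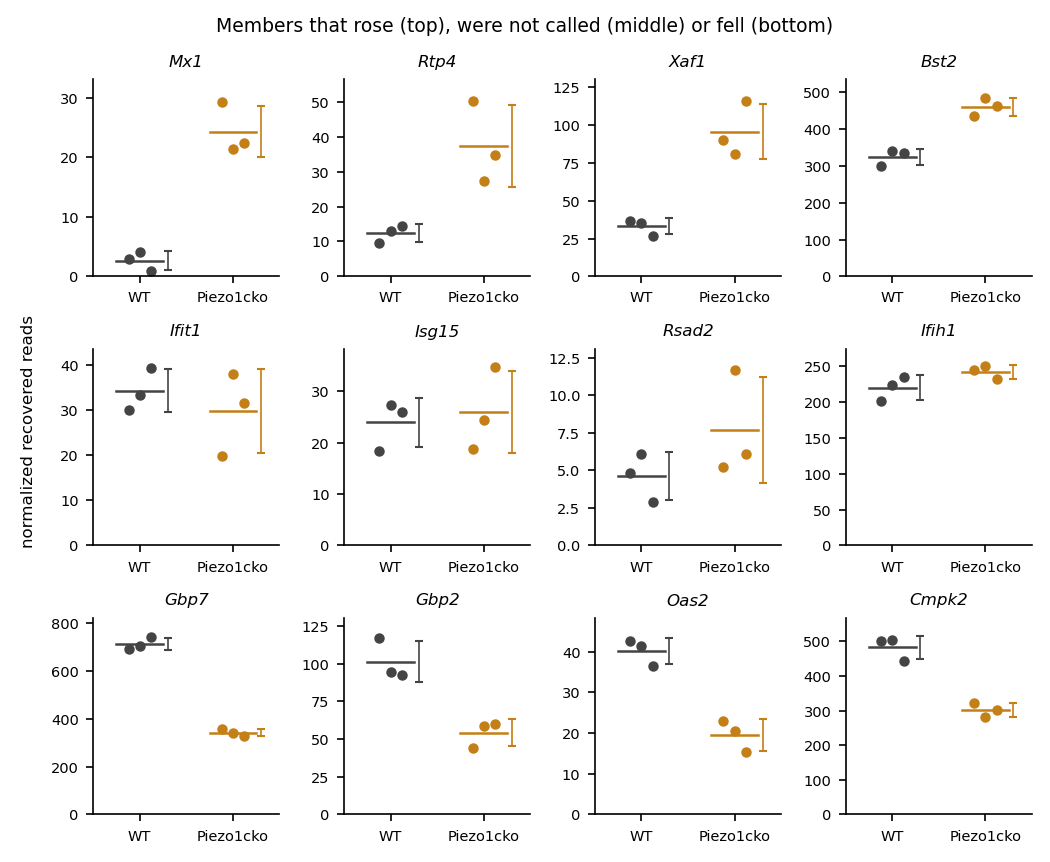
Normalized recovered reads in each library for 4 members that rose (top), 4 not called (middle) and 4 that fell (bottom); points are libraries, horizontal lines group means and error bars SD (n = 3). Mx1, Rtp4, Xaf1 and Bst2 separate upwards, Gbp7, Gbp2, Oas2 and Cmpk2 downwards, and the points of Ifit1, Isg15, Rsad2 and Ifih1 overlap.

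In the ISG15 system, Isg15, a ubiquitin-like modifier that is among the most strongly interferon-induced genes, had 18.4, 27.2 and 25.98 normalized reads in WT and 18.8, 24.4 and 34.6 in Piezo1cko libraries. The groups overlapped, with 1 Piezo1cko library above the WT range (log2 difference 0.01, adjusted p = 0.747, interval of the log2 fold on recovered reads -0.50 to 0.69). Usp18, which removes ISG15 and blocks Ifnar2 signalling, had 42.7, 47.4 and 41.4 normalized reads in WT and 54.3, 65.3 and 86.5 in Piezo1cko libraries. It was higher in each Piezo1cko library, at 157% of WT (log2 difference 0.14 ± 0.0414, adjusted p = 0.00705), but the call was lost without Piezo1cko replicate 3 (adjusted p = 0.0555).

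The 4 interferon-induced GTPases attack the vacuoles of intracellular microbes. Of these, 2 were lower (50%, against 31.4% of all genes), 1 higher (25%, against 31.6%) and 1 not called. Gbp7 (chr3:142530342-142550149) had 692, 704 and 742 normalized reads in WT and 356, 339 and 328 in Piezo1cko libraries. Its libraries were tight and far apart, at 47.9% of WT (deposited log2 difference -0.63 ± 0.0354, adjusted p = 2.97e-11, log2 fold on recovered reads -1.06 ± 0.0627). Gbp2, a neighbour in the same cluster on chromosome 3, had 117, 94.9 and 92.4 normalized reads in WT and 43.9, 58.5 and 60.03 in Piezo1cko libraries. It fell to 53.3% of WT (log2 difference -0.24 ± 0.0415, adjusted p = 6.12e-05). Gbp3, which lies between them (chr3:142560026-142573209), had 922, 897 and 913 normalized reads in WT and 925, 889 and 911 in Piezo1cko libraries. It was at 99.7% of WT, with an interval of the log2 fold on recovered reads of -0.10 to 0.09. The ISRE letters were found in the windows of all 3, as printed above. Igtp (Irgm3), an immunity-related GTPase, had 420, 386 and 427 normalized reads in WT and 552, 458 and 494 in Piezo1cko libraries. It was at 122% of WT without overlap (log2 difference 0.16 ± 0.0414, adjusted p = 0.00227), and its exons overlap those of Irgm2 on the same strand, which was not called.

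Among 9 further guanylate-binding and immunity-related GTPases tested, 4 were higher (44.4%) and 2 lower (22.2%), beside 31.6% and 31.4% of all genes. Tgtp2 was at 171% of WT, Ifi47 at 130% and Irgm1, a regulator of the family, at 122%. Gm12185 had 0 reads in WT and 10.2 to 11.7 normalized reads in Piezo1cko libraries, at least 11.4-fold higher. It is among the 4 higher and entered the test through its Piezo1cko reads alone, which fixed its direction. Gbp5, which promotes inflammasome assembly, fell to 9.96% and Gm5431 to 27.5%. Irgm2, Gvin1 and Tgtp1 were not called (115%, 66.0% and 97.3% of WT).

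A wider list of interferon-stimulated genes outside the 39 had 31 of 56 tested higher (55.4%, against 31.6% of all genes) and 11 lower (19.6%, against 31.4%). The largest differences on the deposited scale were those of Slfn2 (36.4% of WT) and Slfn9 (46.9%), Schlafen genes tied to immune cell quiescence and growth, which fell, and of Ifi209 (171%), Sp100 (165%) and Pml (175%), which rose. Ifi209 belongs to the AIM2-like receptors, and Sp100 and Pml build nuclear bodies. Cxcl10, an interferon-induced chemokine named here after its values were seen, had 61.1, 54.5 and 63.5 normalized reads in WT and 0 in each Piezo1cko library, at least 59.1-fold lower.

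**Figure D5:**
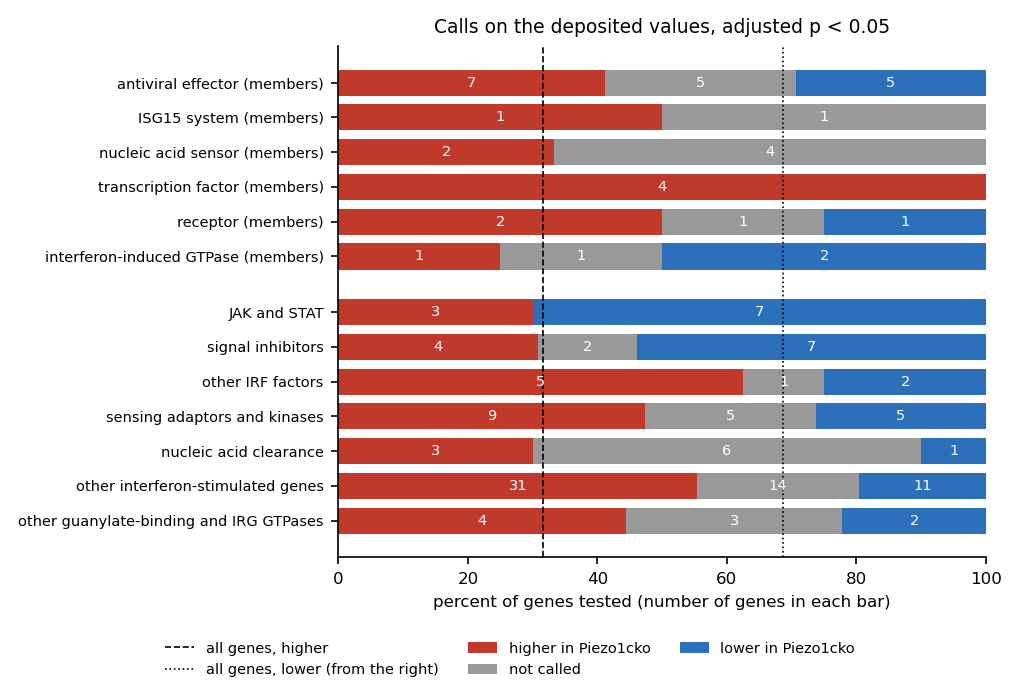
Share of genes tested that were higher, not called or lower in Piezo1cko LSCs (adjusted p under 0.05 on the deposited values), for the 6 roles of the members (top) and 7 lists of the wider pathway (bottom), with the number of genes in each bar. The dashed and dotted lines mark the shares of all genes, 31.6% higher and 31.4% lower (counted from the right). The factors lie fully above the first. The interferon-induced GTPases among the members, the kinases and STAT proteins, and the signal inhibitors reach past the second.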

How the data were processed

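Values of the 6 libraries came from 1 table deposited by the authors, made with fastp 0.20.1 for trimming, HISAT2 2.2.1 for mapping (GRCm38), featureCounts 2.0.1 for counting and DESeq2 1.28.1 for normalization. The deposited values are log2 values in the form of a regularized log (-1.97 to 18.06), and 28965 of 55367 genes are listed at 0. Genes whose mean was 1 or more (16746) entered a linear model without covariates in limma 3.58.1 under R 4.3.3 (lmFit, eBayes with trend), with Benjamini-Hochberg adjustment over all of them, and intervals are 95%.

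The transform was undone to reads: 92.0% of values fell within 0.1 of a whole number where genes averaged 1 read or more (18323 genes), and 26.7% for the 8079 below, which were rounded. Simulated reads of 18069 genes, transformed in the same form that was then undone, came back exactly (100%). This checks the calculation only and cannot show that the deposited values follow that form. Recovered reads of 17352 genes with at least 10 in total were fitted with limma-voom. Each fit was checked by itself with 200 simulated changed genes: 173 were found on the deposited values (16746 genes) and 195 on recovered reads (17352 genes). On recovered reads the changed genes were better expressed than Mx1, Mx2, Ifit3 and Rsad2, and their log2 folds were at least 1. That check therefore cannot show how well smaller folds or such weakly expressed members are found. The counts come from different gene sets and sizes of change, and which fit finds more was not tested. A zero group was set to a floor of 3 reads over its 3 libraries. Libraries of a group differed by more than counting noise (chi-square per gene 1.37 to 1.94). A two-sided exact permutation test of 3 libraries against 3 cannot give a p below 0.1, so single genes rest on the fits.

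Coordinates and exon lengths, merged over transcripts, are from GENCODE M21 (GRCm38). Members and gene lists were chosen with earlier results of these data known. Per-library values are given for receptors, factors, members past both thresholds on recovered reads and, chosen after values were seen, some other members. From each wider list the 5 called genes with the largest difference are named, or all tested genes of lists of up to 10. Genes named outside this rule are marked, and some genes of these lists are counted but not reported here by name.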

Additional observations from a re-analysis of the deposited data

How the results depend on the processing

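The fits were repeated without the filter on low values, with a mean of at least 5, with libraries set to the same median, on recovered reads, on library totals, with a replicate block and without each library. Members higher numbered 14 to 21 and members lower 7 or 8 in all of these, and 21 of the 25 called members kept their call and direction in every setting that tested them. Members past both thresholds went from 0 to 6 higher and 2 lower on recovered reads, with either scaling, where values are not shrunken, and the members' median difference went from 0.07 to 0.25 on recovered reads and 0.27 on library totals. Without 1 library, members higher ran from 15 to 17, members lower from 7 to 8, members past both thresholds stayed at 0, and the median ran from 0.05 to 0.07.

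Isg20 lost its call without WT replicate 3 (adjusted p = 0.156), Piezo1cko replicate 2 (0.0552) or 3 (0.119) and with equal medians (0.0516). Oasl1 lost it without WT replicate 1 (0.0589) and Usp18 without Piezo1cko replicate 3 (0.0555). Ddx58 lost it on recovered reads (0.0507) and without WT replicate 2 or 3 or Piezo1cko replicate 2 or 3 (0.0550 to 0.0944). Cgas gained a call with equal medians (0.0293) and without WT replicate 1 (0.0166) or Piezo1cko replicate 2 (0.0426), and Rsad2, Oasl2 and Ifnar1 gained one with equal medians. The cause was not tested. Among members not called, the log2 difference changed sign for Ifit1 without Piezo1cko replicate 1 (0.0033, lowest leave-one-out value -0.0566), Isg15 without Piezo1cko replicate 3 (-0.0154) or WT replicate 1 (-0.0057, highest 0.0368), Zbp1 without Piezo1cko replicate 1 (0.0019, lowest -0.1046), and Gbp3 with equal medians (0.0197), on library totals (0.0134) and without Piezo1cko replicate 2 (0.0071) or WT replicate 1 (0.0030, lowest -0.0112).

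Libraries with the same number deviated together only weakly (correlations 0.195, 0.161 and 0.0696), so the numbers were not taken to pair them, although each library correlated best with its own number. With the replicate block, 18 members were higher and 8 lower, and the 1 change of call among members was that of Cgas (log2 difference 0.0983, adjusted p = 0.0219).

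Depth limits Mx2, Ifit3, Ifi44 and Rsad2, with under 12 normalized reads in every library, and the interferon genes, at or near 0 reads.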
